A study of Mus musculus with 10 samples.

Results

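Complex II, the succinate dehydrogenase of the inner mitochondrial membrane, is built from 4 subunits with the help of 4 dedicated assembly factors, and the messenger RNAs of all 8 genes were measured here in mouse ventricle. The genes were Sdha, Sdhb, Sdhc, Sdhd, Sdhaf1, Sdhaf2, Sdhaf3 and Sdhaf4, found as every probe set whose single annotated gene symbol was one of these names. This gave 9 of the 35556 probe sets on the array and 8 of 19938 named genes, with 2 probe sets for Sdhaf4 and 1 for each of the others. All 8 genes were bright enough to be among the 13953 genes tested.

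Ventricles of 10 mice were compared, each on an Affymetrix mouse gene array of its own. The labels give every mouse as lacking PGC-1α (PGC-1a-/-, gene Ppargc1a), and their source names give all of them floxed PGC-1β alleles and an inducible Cre recombinase (bf/f/MerCre). At 2 months of age, 5 mice received tamoxifen at 50 mg/kg per day on 2 sequential days, which switches the Cre on, and are labelled as lacking PGC-1α and PGC-1β. The other 5 received the sunflower seed oil alone and are labelled as lacking PGC-1α with PGC-1β unaffected. All were sampled 1 month later, at 3 months. The titles of the vehicle-labelled arrays name only PGC-1a-/-, so under the titles the groups would also differ in the floxed alleles and the Cre. The sources used here do not give the promoter that drives MerCre. No group received tamoxifen without the floxed alleles, so tamoxifen, the Cre and the loss of PGC-1β cannot be told apart. Groups are named by their labels, tamoxifen-labelled and vehicle-labelled, and differences are tamoxifen-labelled minus vehicle-labelled. The comparison asks how ventricles labelled as lacking PGC-1α and PGC-1β differ from those labelled as lacking PGC-1α alone.

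PGC-1α and PGC-1β are coactivators that raise respiratory genes through nuclear receptors such as the ERRs. Complex II belongs both to the TCA cycle and to the respiratory chain. It oxidises succinate to fumarate and passes the electrons to ubiquinone, and it moves no protons. SDHA holds the flavin that meets succinate, SDHB carries the electrons over its iron-sulfur clusters, and SDHC and SDHD anchor the enzyme in the membrane and form the ubiquinone site. All subunits are encoded in the nucleus. The heart holds much of this enzyme, in keeping with its high rate of oxidation.

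Before the results, the targeted genes and the arrays were checked. Ppargc1b, labelled as deleted in the tamoxifen-labelled mice, was not lower there: it read 9.65 to 9.90 in the vehicle-labelled and 9.93 to 10.15 in the tamoxifen-labelled arrays (0.27 ± 0.061, SE; limma adjusted p = 0.00528). Ppargc1a, labelled as deleted in both groups, rose by 0.39 ± 0.095 (limma adjusted p = 0.00813). The sources used here do not say whether these probe sets lie in the deleted parts, and outside them they would check nothing, so every direction rests on the labels. Tamoxifen array 2 had the highest median log2 signal, 7.31 against 7.18 to 7.24 in the others, and without it the same number of complex II genes, 5, were lower. With 5 arrays a group, precision is limited by their number.

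The 4 subunit genes were all lower in the tamoxifen-labelled ventricles, by 1.79-fold to 2.38-fold, while 3 of the 4 assembly factor genes did not pass the test. Sdhb and Sdhd fell more than Sdha and Sdhc. Of the assembly factors, Sdhaf2 fell 1.42-fold. The subunits were also brighter, with mean signals above those of 97.5% to 99.2% of all named genes. For the assembly factor probe sets used, this was 68.3% to 85.1%. Whether brightness bears on the contrast between subunits and assembly factors was not tested. In all, 5 of the 8 genes were lower and 0 were higher at an adjusted p of 0.05 (limma, Benjamini-Hochberg over all 13953 genes), where 8.28% of all genes were lower and 13.6% higher. In the same 5 genes every tamoxifen-labelled value lay below every vehicle-labelled one, as it did in 6.12% of all genes. At an unadjusted limma p of 0.05, 1 of the 8 was higher, Sdhaf4, where 21.2% of all genes were higher. In whole tissue, fewer cells of a type and less RNA per cell cannot be told apart. The summed linear signal of 12 cardiomyocyte markers was 177200 to 180300 in the vehicle-labelled and 180600 to 183800 in the tamoxifen-labelled arrays. The brightest markers weigh most in this sum. Of the 12, 1 was called lower (Ryr2, -0.16) and 0 higher. Whether cell numbers bear on the complex II results was not tested.

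**Figure D1:**
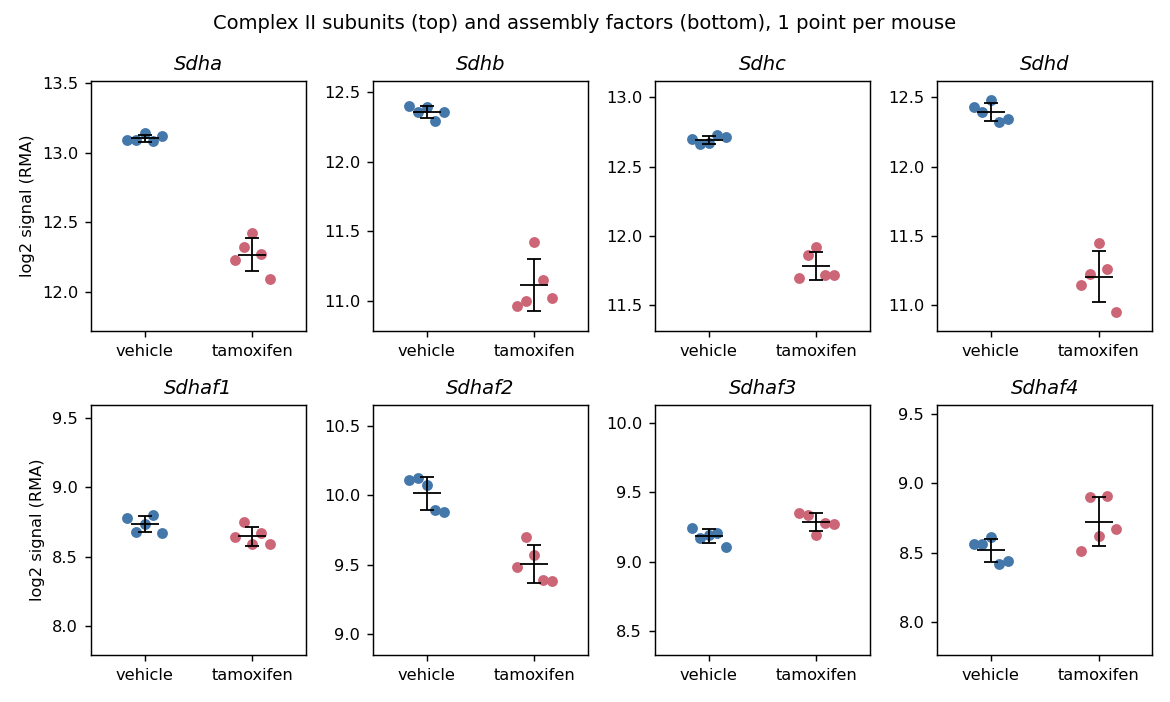
Log2 RMA signal of the 8 complex II genes (vertical axis, the same span of 1.8 in every panel) in vehicle-labelled and tamoxifen-labelled ventricles, with 1 point per mouse and the mean ± SD of 5 mice in black. The groups lie apart in Sdha, Sdhb, Sdhc, Sdhd and Sdhaf2 and overlap in Sdhaf1, Sdhaf3 and Sdhaf4.

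Sdhb, the iron-sulfur subunit, read 12.40, 12.36, 12.39, 12.29 and 12.36 (log2 signal) in vehicle arrays 1 to 5, and 10.96, 11.00, 11.42, 11.15 and 11.02 in tamoxifen arrays 1 to 5. The groups were 0.87 apart at their nearest values, and tamoxifen array 3 was the least low. The mean went from 12.36 ± 0.043 to 11.11 ± 0.19 (SD, n = 5 per group), a log2 fold change of -1.25 ± 0.074 (SE; limma adjusted p = 6.59e-09). The signal was thus at 42.0% of the vehicle mean, and only 4 of all genes tested had a lower log2 fold change.

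Sdhd, the smaller membrane anchor, read 12.43, 12.39, 12.48, 12.32 and 12.34 in the vehicle-labelled arrays and 11.15, 11.23, 11.45, 11.26 and 10.95 in the tamoxifen-labelled ones. The nearest values of the groups were again 0.87 apart. The log2 fold change was -1.18 ± 0.074 (SE; limma adjusted p = 1.08e-08), or 2.27-fold lower with a 95% interval of 2.04 to 2.53. Of all 13953 genes, 26 (0.186%) were called lower by 2-fold or more, and Sdhb and Sdhd were among them.

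Sdhc, the other membrane anchor, read 12.70, 12.66, 12.67, 12.73 and 12.71 in the vehicle-labelled arrays and 11.70, 11.86, 11.92, 11.72 and 11.72 in the tamoxifen-labelled ones. It had the narrowest spread of the subunits in the tamoxifen-labelled group, with an SD of 0.099. The log2 fold change was -0.91 ± 0.053 (SE; limma adjusted p = 5.84e-09), or 1.88-fold lower with a 95% interval of 1.74 to 2.03.

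Sdha, the flavoprotein that oxidises succinate, read 13.09, 13.09, 13.14, 13.08 and 13.12 in the vehicle-labelled arrays and 12.23, 12.32, 12.42, 12.27 and 12.09 in the tamoxifen-labelled ones. Its signal was the brightest of the 8, above that of 99.2% of all named genes. It had the smallest fall of the subunits, with a log2 fold change of -0.84 ± 0.057 (SE; limma adjusted p = 2.85e-08), or 1.79-fold lower with a 95% interval of 1.64 to 1.94. In the ordered list of log2 fold changes over all genes tested, from the lowest up, Sdhb stood at place 5, Sdhd at 8, Sdhc at 39 and Sdha at 54.

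Within each array, the subunits changed by unequal amounts, in pairs. The log2 difference Sdha minus Sdhb was 0.74 on average in the vehicle-labelled arrays and 1.16 in the tamoxifen-labelled ones, a change of 0.41 (95% interval 0.27 to 0.56; exact two-sided permutation p = 0.00794, adjusted p = 0.0119 over 6 pairs). With 5 arrays a group, no smaller p is possible. Sdha minus Sdhd changed by 0.35 (0.26 to 0.44), Sdhc minus Sdhd by 0.27 (0.11 to 0.43) and Sdhb minus Sdhc by -0.34 (-0.50 to -0.18), each with the same exact permutation p of 0.00794 and adjusted p of 0.0119. Each of these 4 differences separated all tamoxifen-labelled arrays from all vehicle-labelled ones. No difference was detected inside the 2 remaining pairs. Sdha minus Sdhc changed by 0.072 (95% interval -0.015 to 0.16; exact permutation adjusted p = 0.124) and Sdhb minus Sdhd by -0.066 (-0.20 to 0.065; exact permutation adjusted p = 0.317). Without tamoxifen array 5, Sdha minus Sdhc did pass, at 0.10 (exact permutation adjusted p = 0.0286). The falls also ran in the reverse order of probe set brightness, with mean vehicle-labelled signals of 13.10 for Sdha, 12.69 for Sdhc, 12.39 for Sdhd and 12.36 for Sdhb. These signals are not transcript levels, and whether brightness bears on the size of the falls was not tested.

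The subunits fell in every tamoxifen-labelled mouse, and the size of the fall differed between mice. The mean over the 4 subunits, each set against its own vehicle mean, was -1.13, -1.03, -0.84, -1.04 and -1.19 in tamoxifen arrays 1 to 5, and within 0.033 of 0 in all 5 vehicle-labelled arrays. Tamoxifen array 3 had the smallest fall in each of the 4 subunits. The largest fall was in array 5 for Sdha and Sdhd and in array 1 for Sdhb and Sdhc. The SD over mice was 2.78 to 4.84 times as large in the tamoxifen-labelled group as in the vehicle-labelled one for the 4 subunits, against a median of 1.15 times over all genes tested. The wider spread was not particular to complex II, as genes named after their values were seen show. Tamoxifen-labelled and vehicle-labelled SDs were 0.092 and 0.019 for Uqcrc1, 0.11 and 0.014 for Idh3b, and 0.12 and 0.019 for Dld. Not every lowered gene spread more, as with Uqcrq (0.046 and 0.055).

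**Figure D2:**
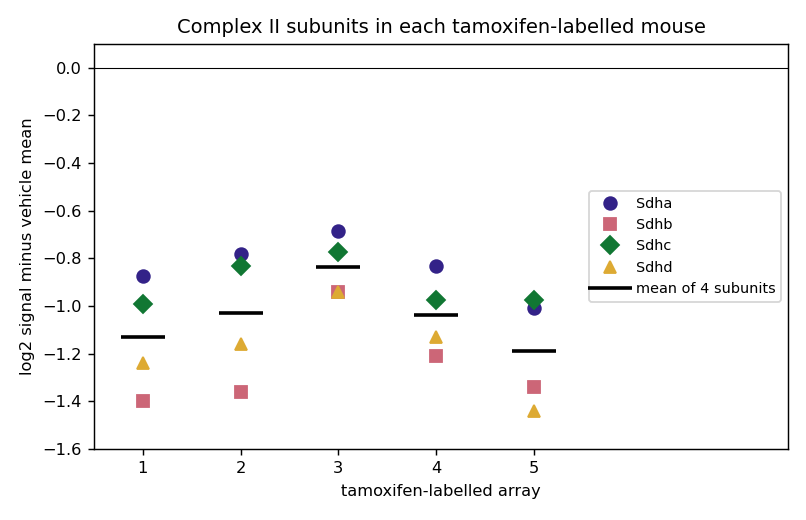
Log2 signal of each complex II subunit minus its vehicle mean (vertical axis) in the 5 tamoxifen-labelled arrays (horizontal axis), with the mean of the 4 subunits as a black bar. Sdha and Sdhc lie above Sdhb and Sdhd in every array, and array 3 has the smallest falls, with a mean of -0.84.

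The assembly factors act at named steps. SDHAF2 helps attach the flavin to SDHA, SDHAF4 binds SDHA on its way to SDHB, and SDHAF1 and SDHAF3 guard the iron-sulfur clusters of SDHB. Sdhaf2 read 10.11, 10.12, 10.07, 9.89 and 9.88 in the vehicle-labelled arrays and 9.48, 9.70, 9.57, 9.39 and 9.38 in the tamoxifen-labelled ones, so the groups were 0.18 apart. Its log2 fold change was -0.51 ± 0.070 (SE; limma adjusted p = 6.53e-05), or 1.42-fold lower with a 95% interval of 1.28 to 1.58.

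The other 3 assembly factor genes did not pass the test. Sdhaf1 read 8.78, 8.68, 8.74, 8.80 and 8.67 in the vehicle-labelled arrays and 8.64, 8.75, 8.59, 8.67 and 8.59 in the tamoxifen-labelled ones, a difference of -0.086 with a 95% interval of -0.19 to 0.020 (limma adjusted p = 0.246). A fall as large as that of Sdhaf2 lies outside this interval. Sdhaf3 read 9.24, 9.17, 9.19, 9.21 and 9.11 in the vehicle-labelled arrays and 9.35, 9.34, 9.19, 9.28 and 9.27 in the tamoxifen-labelled ones, a difference of 0.10 with a 95% interval of -0.0015 to 0.21 (limma adjusted p = 0.154).

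Sdhaf4 read 8.56, 8.56, 8.61, 8.42 and 8.44 in the vehicle-labelled arrays and 8.51, 8.90, 8.62, 8.91 and 8.67 in the tamoxifen-labelled ones. Tamoxifen arrays 2 and 4 were the high ones, and array 1 lay inside the vehicle range. The difference was 0.20 with a 95% interval of 0.046 to 0.36 (limma adjusted p = 0.0624). Without tamoxifen array 1 it was 0.26 and passed as higher (limma adjusted p = 0.0204), and over all alternatives the adjusted p ran from 0.0204 to 0.225. The second Sdhaf4 probe set was dimmer, with means of 6.53 ± 0.22 and 6.58 ± 0.066 (SD, n = 5 per group), and was not used for the gene.

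As a description added after the values were seen, each assembly factor gene was set against each subunit gene within the arrays. In all 16 pairs the assembly factor stood higher against the subunit in every tamoxifen-labelled array than in any vehicle-labelled one, by 0.33 (Sdhaf2 against Sdha) to 1.45 (Sdhaf4 against Sdhb) on the log2 scale. These values restate the changes of the single genes, and no test is given for them.

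**Figure D3:**
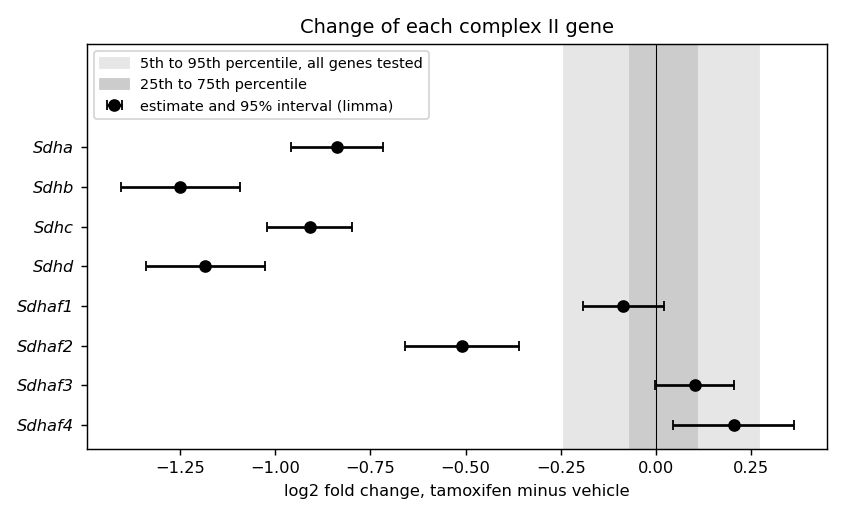
Log2 fold change (tamoxifen-labelled minus vehicle-labelled, horizontal axis) of each complex II gene with its 95% interval from limma, over grey bands that hold the middle of the distribution of all 13953 genes tested (5th to 95th percentile, -0.24 to 0.27). The 4 subunits and Sdhaf2 lie left of the bands, and Sdhaf1, Sdhaf3 and Sdhaf4 lie within them.

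The promoters of the subunit genes are shown because these genes fell together in mice labelled as lacking coactivators of ERR and NRF1, factors known to bind near such genes. RefSeq windows (GRCm38.p6) of 250 bases before to 50 bases after the start were at hand for 7 of the 8 genes, all but Sdhc. The 250 bases before the start are given 5′ to 3′ on the gene's own strand, in lower case, with any match to the motifs below in capitals. The windows are chr4:140961021-140961270 (plus strand) for Sdhb, chr9:50603850-50604099 (minus strand) for Sdhd and chr13:74350241-74350490 (minus strand) for Sdha.
Sdhb: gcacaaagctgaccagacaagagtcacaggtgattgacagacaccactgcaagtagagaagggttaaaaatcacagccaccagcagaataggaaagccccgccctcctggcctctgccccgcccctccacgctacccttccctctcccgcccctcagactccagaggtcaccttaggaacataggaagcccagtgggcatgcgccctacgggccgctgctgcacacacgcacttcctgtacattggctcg
Sdhd: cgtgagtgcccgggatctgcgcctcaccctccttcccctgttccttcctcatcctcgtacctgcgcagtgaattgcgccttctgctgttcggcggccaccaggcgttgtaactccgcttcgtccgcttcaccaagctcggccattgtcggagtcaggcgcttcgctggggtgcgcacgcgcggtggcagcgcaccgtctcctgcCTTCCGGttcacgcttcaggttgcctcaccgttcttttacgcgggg
Sdha: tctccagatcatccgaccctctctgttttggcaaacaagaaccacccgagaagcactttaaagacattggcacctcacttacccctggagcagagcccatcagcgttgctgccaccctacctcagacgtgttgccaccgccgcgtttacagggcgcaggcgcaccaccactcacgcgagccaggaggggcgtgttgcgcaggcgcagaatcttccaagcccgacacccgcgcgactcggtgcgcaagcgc

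The motifs searched on both strands of the 300 bases were AAGGTCA, the half-site that ERRs bind, CCGGAAG, an ETS site of the kind GABP binds, TGCGCATGC for NRF1 and AAGATGGCG for YY1. No 2 matches overlapped. AAGGTCA was present in the Sdhd window, at bases 37 to 43 on the opposite strand, counting the start as base 1, and in none of the other 6 windows, and it was present in 4.72% of all 32851 windows of this length. CCGGAAG was present for Sdhb (bases 7 to 13), for Sdhd (the capitals above), and also for Sdhaf1, Sdhaf2 and Sdhaf3, against 8.86% of all windows. It was therefore found in genes that fell and in genes that did not pass the test. TGCGCATGC (1.52% of all windows) and AAGATGGCG (1.4%) matched none of the 7. Only exact matches were sought, so sites that differ from these letters were not counted. A window without a match may still hold such a site. Matches after the start were also present for Sdhaf1 (bases 8 to 14) and Sdhaf2 (bases 17 to 23), and are not printed. Those of the subunit genes, with 30 bases around them, lie at chr4:140961267-140961296 for Sdhb and chr9:50603800-50603829 for Sdhd, with the motif in capitals.
Sdhb ETS match: ctcggagaaaCCGGAAGcggccttccactc
Sdhd ERR half-site match: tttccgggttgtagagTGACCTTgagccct

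Steps on either side of succinate fell as well. Of 11 tested genes for steps that lead to succinate or follow complex II, 11 were lower, beside 8.28% of all genes tested. Their median log2 fold change was -0.55, beside 0.014 for all genes tested. Suclg1, of the succinyl-CoA ligases that release succinate, fell by 0.86 ± 0.048 (SE). Dlst and Dld, of the 2-oxoglutarate dehydrogenase complex upstream of these ligases, fell by 1.08 ± 0.058 and 0.93 ± 0.056. Other genes of these enzymes, named after their values were seen, fell less: the ligase genes Sucla2 (-0.55) and Suclg2 (-0.24), and Ogdh (-0.36) of the dehydrogenase complex. Fh1, the fumarase that takes the product of complex II, fell by 0.89 ± 0.052. Aldh5a1, which makes succinate from a breakdown product of the transmitter GABA, fell by 0.20 ± 0.055 (limma adjusted p = 0.0147), the smallest fall of the 11, for which it was picked, and the limma adjusted p of the other 10 was at most 0.00151. The succinate receptor gene Sucnr1 was too dim to be tested. Of 5 tested genes of the earlier TCA cycle, 5 were lower (median -0.46), among them Idh3b (-0.95 ± 0.054), Idh3g (-0.60), Idh3a (-0.46) and Cs (-0.35).

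**Figure D4:**
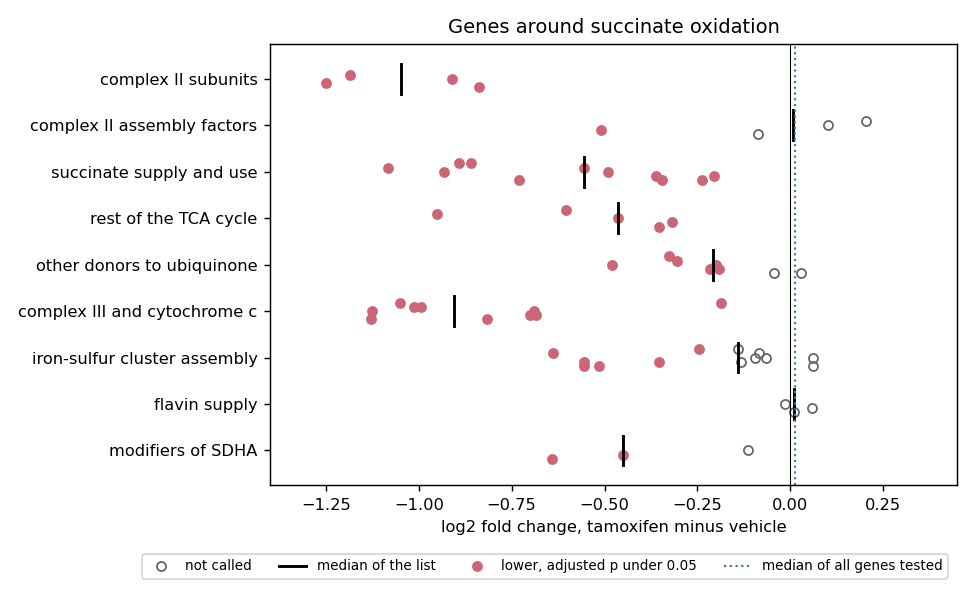
Log2 fold change (tamoxifen-labelled minus vehicle-labelled, horizontal axis) of each tested gene in 9 lists around succinate oxidation, with filled points for genes lower at a limma adjusted p of 0.05, open points for genes not called and black bars for the median of each list. The medians of the complex II subunits (-1.05) and of complex III with cytochrome c (-0.91) lie farthest left, while those of the assembly factors (0.008) and of flavin supply (0.010) lie beside the median of all genes tested (0.014).

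Electrons from complex II go through ubiquinone to complex III, and these genes were lower too. Over all genes tested, 8.28% were called lower and the median log2 fold change was 0.014. All 10 tested genes of complex III and cytochrome c were lower, with a median of -0.91. The weakest of them, Uqcrb (-0.19 ± 0.055, SE; limma adjusted p = 0.0234, groups overlapping), named after its values were seen, lost its call when any of vehicle arrays 3 and 4 and tamoxifen arrays 1 and 4 was left out (adjusted p from 0.0528 to 0.0719). Its adjusted p ran from 0.000851 to 0.0719 over all alternatives. Uqcrfs1, the Rieske iron-sulfur protein, fell by 1.13 ± 0.054, Uqcrq by 1.05 ± 0.047, Uqcrh by 1.01 ± 0.050 and Uqcr11 by 0.99 ± 0.054 (SE). Of 8 tested genes of other enzymes that feed ubiquinone, 6 were lower, with a median of -0.21. Etfa and Etfb, the electron transfer flavoprotein of fatty acid oxidation, fell by 0.48 ± 0.050 and 0.31 ± 0.046, its dehydrogenase gene Etfdh by 0.33 ± 0.046, and the proline dehydrogenase gene Prodh by 0.22 ± 0.048. The glycerol phosphate dehydrogenase gene Gpd2 (-0.044) and the choline dehydrogenase gene Chdh (0.030), named after their values were seen, did not pass (limma adjusted p = 0.646 and 0.775). Whether the lists differ from the complex II subunits was not tested.

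In the list for iron-sulfur clusters, which SDHB needs, 6 of 13 tested genes were lower, with a median of -0.14. Those with the smallest p were the chaperone gene Hspa9 (-0.64 ± 0.053), Isca1 (-0.51 ± 0.043), Bola3 (-0.56 ± 0.052) and Glrx5 (-0.56 ± 0.055). Without tamoxifen array 2, with array weights or with quantile normalization, 9 of the 13 were lower. The genes gained, named after their values were seen, were Iscu, Nfs1 and Slc25a28, with limma adjusted p of 0.045, 0.0287 and 0.0232 without tamoxifen array 2 and of 0.168, 0.125 and 0.0925 with all arrays. Over all alternatives their adjusted p ran from 0.0234 to 0.344, from 0.0116 to 0.27 and from 0.0119 to 0.208. Of the genes that supply flavin, which SDHA needs, 0 of 3 tested passed, beside 8.28% lower among all genes: the riboflavin kinase gene Rfk was at 0.010, the mitochondrial carrier gene Slc25a32 at 0.058 and the riboflavin transporter gene Slc52a3 at -0.014. By limma, 0 of the 3 passed at an unadjusted p of 0.05 as well. Of 3 genes whose proteins are known to act on SDHA or the assembled enzyme, the deacylase genes Sirt3 (-0.64 ± 0.057) and Sirt5 (-0.45 ± 0.056) fell, while the chaperone gene Trap1 was at -0.11 (limma adjusted p = 0.122). Trap1 passed as lower without tamoxifen array 2 (-0.15, limma adjusted p = 0.0226), and its adjusted p ran from 0.00709 to 0.25 over all alternatives.

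The genes whose profile over the 10 arrays lay nearest to a subunit, each centred on its own vehicle mean, were named by the root mean square log2 difference among all genes tested outside complex II. For Sdha they were Fam210a (0.036), Uqcrc1 (0.041) and Ndufa8 (0.049). For Sdhb they were Ndufb8 (0.073), Atp5k (0.096) and Dlat (0.11). For Sdhc they were Ndufb9 (0.044), Phyh (0.045) and Ndufa10 (0.047), and for Sdhd Ndufa5 (0.086), Uqcrfs1 (0.089) and Atp5o (0.091). Sdhb and Sdhd lay 0.093 from each other by the same measure, and Sdha and Sdhc lay 0.074 apart, against 0.22 to 0.30 for the 4 pairs across. With each gene centred on its vehicle mean, these distances largely restate the fold changes and pair differences given above. They are not separate evidence for the pairs, and no test is given for them.

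Markers of some other cell types were higher in the same tamoxifen-labelled arrays in which the subunits were low. Among all genes tested, 13.6% were called higher. Macrophage markers were higher in 8 of 12 tested genes (summed linear signal 6427 to 7370 in the vehicle-labelled against 7550 to 9099 in the tamoxifen-labelled arrays), and fibroblast markers in 7 of 11 (24060 to 25010 against 26330 to 29200). Endothelial markers were higher in 1 of 10, near the share of all genes, and their sums overlapped (20900 to 21980 against 20430 to 22620). Tested markers called higher numbered 2 of 9 for smooth muscle and pericytes, 1 of 6 for atrial cells and 1 of 3 for lymphocytes. They numbered 0 of 2 for erythroid cells and 0 of 3 for adipocytes. Of 5 tested genes in the skeletal muscle list, which includes Acta1 and Ckm that the heart also makes, 4 were higher (18870 to 21160 against 30970 to 32110). The part of these cells in the complex II results was not tested.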

How the data were processed

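Per the submitters' processing notes, the authors ran RMA in Affymetrix Expression Console 1.1 and deposited the resulting log2 values, from arrays hybridised with biotin-labelled cDNA of 450 ng total RNA per the labels' protocols. RMA subtracts background, brings arrays to a common distribution and gives 1 value per probe set. No detection calls or single probes were used here. RMA narrows differences of dim probe sets, and near-identical copies and pseudogenes can share probes.

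Probe sets were named through the platform annotation (21789 with 1 symbol, 1621 with several, 12146 with none), and symbols were compared through Entrez identifiers with RefSeq names (0 updated). Each gene kept its brightest single-symbol probe set, and the dimmest 30% of genes (cutoff 6.53 on the log2 scale) were left out. Groups came from the labels. The main test was a two-sided limma 3.58.1 fit (R 4.3.3; eBayes after lmFit, without covariates), with Benjamini-Hochberg over all 13953 genes and a threshold of 0.05. A permutation test over arrays is exact, over all splits. Gene lists are described by counts and medians only. On simulated data for the same 13953 genes and this comparison, the code recovered 74% of changes of 0.3 and 100% of changes of 1 on the log2 scale, and 5.43% of its calls were false. The simulation changed few genes and drew noise independently for each gene, with the same SD in both groups. In the real data many more genes were called and the SD of the subunits differed between groups, so these rates need not hold there.

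The 8 members, the lists, the alternatives and the rule for named genes were chosen with earlier results of these data known. The rule names the members, the targeted genes, up to 4 tested genes with the smallest p per list and the 3 nearest profiles per subunit. Separate mice per array are stated only as 5 mice per group in the design text. Alternatives were array weights, a replicate block, a prior that is trended and robust, median centring, quantile normalization, no filter or a 50% filter, averaging probe sets of a gene, adding those of several genes, each array left out, and 2 arrays left out together. Plots used matplotlib 3.10.9 (Python 3.11.15).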

Additional observations from a re-analysis of the deposited data

Results flagged for a closer look

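Among 72 groups of 5 arrays checked for a value far from the rest (the complex II genes, the targeted genes and the named list genes, in each group), 1 stood out. Trap1, a mitochondrial chaperone gene, read 10.73 in tamoxifen array 2, against 10.59 in the next highest array of that group, and the gap was 0.778 of the group's range, above the limit of 0.71 for 5 samples. Chance marks about 5% of such groups. None of the complex II genes had such a value. Without that array Trap1 passed as lower (limma adjusted p = 0.0226); over all alternatives its adjusted p ran from 0.00709 to 0.25.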

How the results depend on the processing

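In all 20 alternatives the same count of complex II genes, 5, was lower, and Sdha, Sdhb, Sdhc, Sdhd and Sdhaf2 kept their calls, with log2 fold changes of -0.88 to -0.79, -1.33 to -1.21, -0.94 to -0.89, -1.24 to -1.12 and -0.59 to -0.48. Sdhaf4 passed as higher, making 1 of the 8 higher, when the prior was trended and robust (adjusted p = 0.0305), median centring (0.036) and the dimmest 50% of genes left out (0.0403). With 1 array left out, the count of higher complex II genes was 0 to 1 and was 1 only without tamoxifen array 1. The change in Sdha minus Sdhc ranged from 0.055 to 0.10 with 1 array left out, and it passed only without tamoxifen array 5. The other 5 pairs of subunits stayed on their side of the threshold in all 14 alternatives run for them, which did not include the replicate block. Of all genes, 1784 were lower with array weights, against 1155. Higher genes made up 62.2% of calls with all arrays, 51.6% with array weights, 49.6% without tamoxifen array 2 and 46.2% without vehicle array 4 and tamoxifen array 2. The cause was not tested. With the replicate number as a block, 5 complex II genes were lower and 0 higher. In all, 1298 genes were then lower and 2225 higher, against 1155 and 1897 without the block. Same-numbered arrays deviated together with correlations of 0.0377 to 0.204, not above 0.1 in every pair, so the numbers were not taken as pairs (4 of 5 vehicle arrays matched their own number best). In the lists, 9 of 13 iron-sulfur cluster genes and 3 of 3 modifiers of SDHA were lower with array weights, with quantile normalization and without tamoxifen array 2. Of complex III with cytochrome c, 9 of 10 were lower without the filter and with vehicle array 4 and tamoxifen array 2 left out together. Median centring moved the median of all genes from 0.014 to 0.02. The number of arrays and the 2 decimals of the deposited values limit small differences.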
